A study of Mus musculus with 8 samples.

Results

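The proteasome gene family comprised 51 of the 57180 genes in the table of regulatory T cells (Treg cells, CD4+ lymphocytes that hold immune responses in check). Its members were the genes whose symbols begin with Psma, Psmb, Psmc, Psmd, Psme, Psmf or Psmg followed by a number. Of 56 symbols of this form, 5 pseudogene names ending in "-ps" were left out. RNA was measured in Treg cells sorted from mouse chimeras, with 3 libraries labelled chimera KO and 5 labelled chimera WT. The series is titled for copper control of Treg suppressive capacity, but the labels name neither the deleted gene nor the promoter or Cre that would drive its deletion. Whether each library came from its own mouse, the age of the animals and the cells the hosts retained are also not given in the sources used here. The groups are therefore called KO and WT as labelled, with no target gene to check the label against.

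The proteasome degrades proteins tagged with ubiquitin. Its 20S core is a barrel whose outer rings are built from alpha subunits (Psma) and whose inner rings are built from beta subunits (Psmb), of which those encoded by Psmb5, Psmb6 and Psmb7 cut peptide bonds. In lymphocytes and in cells exposed to interferon gamma, these are exchanged for Psmb8, Psmb9 and Psmb10 to give the immunoproteasome, known for making peptides for MHC class I. The 19S cap, with a ring of ATPases (Psmc) and non-ATPase subunits (Psmd), recognises ubiquitin and unfolds the substrate, while PA28 and PA200 (Psme) are alternative caps. Psmg proteins, Psmd5, Psmd9 and Psmd10 are assembly chaperones, and Psmf1 encodes the inhibitor PI31. Psmc3ip and Psme3ip1 match by symbol alone: their products interact with other proteins (in recombination, and with PA28 gamma) and are not proteasome subunits.

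Library totals were 8477879, 4567346 and 4314445 expected counts in KO replicates 1 to 3, and 10589823, 10662034, 11173387, 17977089 and 10544754 in WT replicates 1 to 5. Levels are given as normalised CPM, expected counts brought to a common library size with edgeR's TMM factors. These factors ran from 1.32 to 1.49 in the KO libraries, and were 1.15, 1.09, 1.08, 0.4 and 0.689 in WT replicates 1 to 5, so the normalised values of WT replicates 4 and 5 stand well above their plain shares of counts. All 8 Treg markers examined had counts in every library, with a summed level of 969 to 3287 normalised CPM in KO and 4362 to 9836 normalised CPM in WT. As shares of counts these markers overlapped, at 0.443%, 0.204% and 0.126% in KO, against 0.497%, 0.762%, 0.625%, 0.390% and 0.362% in WT. Foxp3, the factor that defines Treg cells, was low, at 2.69 to 26.6 normalised CPM in KO and 1.25 to 42.0 in WT. WT replicate 4 also held 3108 normalised CPM of 7 B cell markers, against 82.1 to 194 in KO and 201 to 555 in the other WT libraries. It held 4276 normalised CPM of 8 NK and cytotoxic markers, against 4.51 to 63.3 in KO and 48.4 to 144 in the other WT libraries, with Ncr1 at 0 counts in all 8 libraries. WT replicate 5 held 9102 normalised CPM of erythroid markers, against at most 22.2 elsewhere. The part of these RNAs in the results was not tested, and the log2 changes of the main genes and groups are also given without WT replicates 4 and 5. In bulk RNA, fewer cells of a type and less RNA per cell cannot be told apart.

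Proteasome genes took a smaller share of the library in 2 KO libraries than in any WT library, and the third KO library lay within the WT range. The 51 genes together made up 0.596%, 0.304% and 0.354% of counts in KO replicates 1 to 3, and 0.524%, 0.572%, 0.550%, 1.20% and 0.899% in WT replicates 1 to 5. WT replicates 4 and 5 were the highest and KO replicate 1 exceeded WT replicates 1 to 3, so the groups overlapped. The mean share was 0.418% ± 0.156 in KO (SD, n = 3) and 0.749% ± 0.295 in WT (SD, n = 5). The 17 genes of the core other than Psma8 and Psmb11 (Psma1 to Psma7 and Psmb1 to Psmb10) held 0.337%, 0.141% and 0.176% of counts in KO, against 0.317%, 0.332%, 0.296%, 0.666% and 0.597% in WT. The same libraries stood at the ends: KO replicates 2 and 3 lowest, WT replicates 4 and 5 highest. The 6 ATPase genes of the 19S cap showed no such order, at 0.0696%, 0.0509% and 0.0874% in KO, against 0.0494%, 0.0637%, 0.0649%, 0.179% and 0.0566% in WT.

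**Figure D1:**
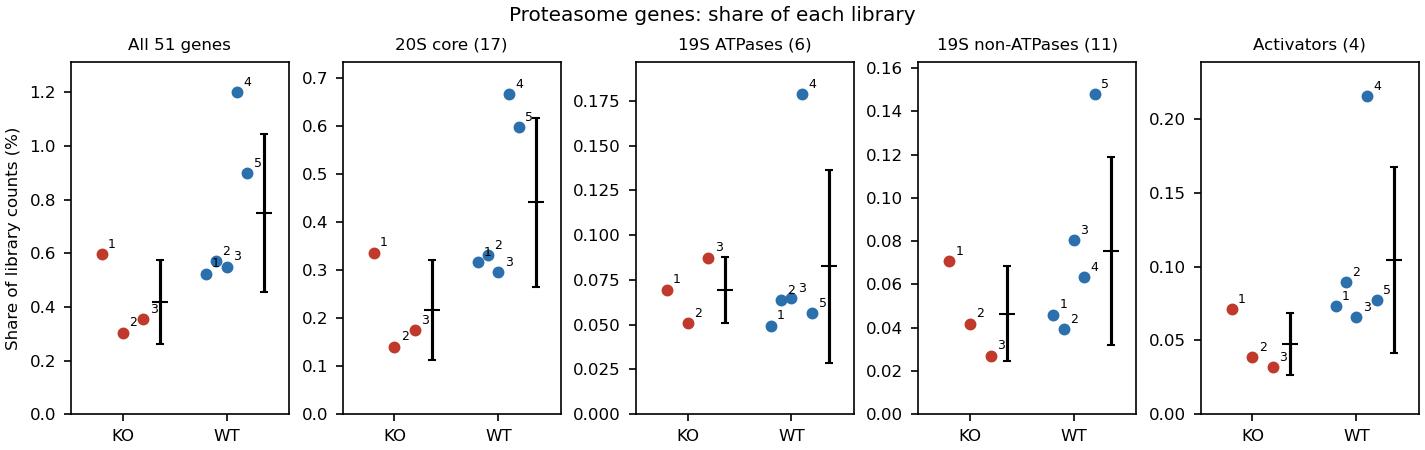
Share of library counts (%) taken by all 51 proteasome genes and by 4 role groups, with 1 point per library (numbered by replicate) and the mean ± SD beside each group. KO replicates 2 and 3 lie lowest for all genes, the core and the activators, while WT replicate 4 is highest for all genes, the core, the ATPases and the activators, and WT replicate 5 for the non-ATPases.

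Of the 51 genes, 47 passed the count filter and were among 14755 genes tested. Psma8, Psmg3, Psmf1 and Psmc3ip did not pass. None of the 47 differed between KO and WT after adjustment: edgeR's quasi-likelihood test with Benjamini-Hochberg adjustment called 0 genes of the whole table in either direction (0% called lower and 0% called higher), and the smallest adjusted p among the 47 was 0.3245. At an unadjusted p under 0.05, 14 of the 47 (29.8%) were lower in KO and 0 were higher, where 6.43% of all tested genes were lower and 7.96% higher. Fitted log2 changes (KO minus WT) were negative for 45 of the 47 (95.7%), against 56.8% of all tested genes and 69% of the 10336 tested protein-coding genes without olfactory and vomeronasal receptor genes. The median log2 change was -1.88 for the proteasome genes, -0.42 for all tested genes and -0.95 for the protein-coding genes.

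The count of 14 varied with the library left out. It was 10 of 48, 1 of 49 and 0 of 50 proteasome genes tested without KO replicates 1, 2 and 3. Of all tested genes, 6.42%, 2.39% and 2.35% were so placed in those runs. Without WT replicates 1 to 5 in turn it was 14, 16, 13, 7 and 9 of 47. The shares of all tested genes were then 6.36%, 6.85%, 6.8%, 6.67% and 5.13%. Without WT replicates 4 and 5 together, 46 proteasome genes could be tested, of which 3 were lower and 1 higher at an unadjusted p under 0.05, where 6.36% of all genes were lower and 8.75% higher. In that fit 37 of the 46 log2 changes were negative, against 53.5% of all genes and 64.1% of protein-coding genes, and the median was -0.82, beside -0.15 for all genes and -0.55 for protein-coding genes. No gene was called after adjustment there either (0% in both directions).

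The size of the difference also depended on how libraries were scaled. Scaling by library totals alone gave a median of -0.88 with 39 of 47 negative. Beside it, the median was 0.21 for all genes (45.3% negative) and -0.22 for protein-coding genes (56.1% negative). At an unadjusted p under 0.05, 1 of the 47 was lower and 0 were higher in that fit. Of all genes, 2.53% were lower and 9.43% higher. TMM computed over protein-coding genes gave -0.77 with 39 of 47 negative, beside medians of 0.56 for all genes (39% negative) and 0.06 for protein-coding genes (48.6% negative), with 0 of the 47 lower and 1, Psmc2, higher at an unadjusted p under 0.05, where 1.92% of all genes were lower and 17.5% higher. DESeq2, used as a second tool, called 15 of the 36 proteasome genes to which it gave an adjusted p (41.7%) lower in KO and 0 higher, where it called 11.1% of all genes with an adjusted p lower and 7.13% higher. The 15 were Psma1, Psma2, Psma4, Psma7, Psmb1, Psmb2, Psmb3, Psmb5, Psmb8, Psmd1, Psmd8, Psmd12, Psme2, Psmg2 and Psmg4.

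Few genes separated the groups completely. Every KO library lay below every WT library in normalised CPM for 4 of the 47 genes (Psmb1, Psmg2, Psma3 and Psme2), or 8.51%, against 4.49% of all tested genes and 5.66% of protein-coding genes. The opposite order held for 0 of the 47 and for 13.2% of all tested genes. On plain shares of counts Psme2 alone had every KO library below every WT library (2.13% of the 47, against 1.66% of all tested genes). The highest normalised CPM was in WT replicate 4 for 28 of the 47 genes and in WT replicate 5 for 13, whereas these libraries were highest for 3356 and 2090 of all 14755 tested genes.

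**Figure D2:**
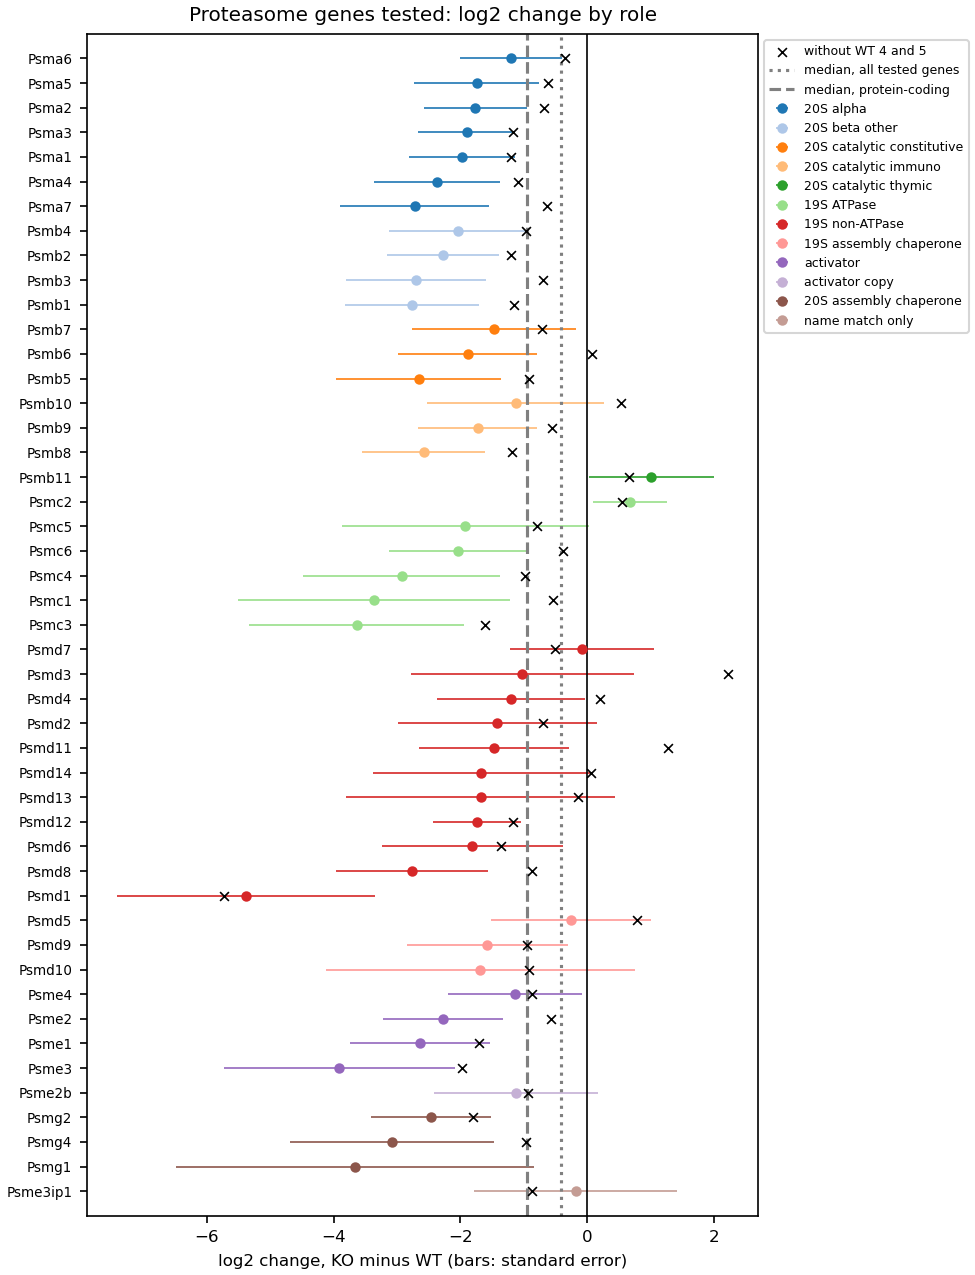
log2 change (KO minus WT) of each of the 47 tested proteasome genes, ordered by role, with the standard error as bars, a cross for the value without WT replicates 4 and 5, and vertical lines at the medians of all tested genes (-0.42) and of protein-coding genes (-0.95). All but 2 points, Psmc2 and Psmb11, lie left of 0.

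Proteasome genes are commonly regulated together through shared promoter elements, among them the antioxidant response element bound by NRF1. For immunoproteasome genes, they include elements bound by interferon regulatory factors. Promoter windows of some of the genes are therefore shown, picked for the motif or neighbouring gene named with each. Of the 51 genes, 43 matched an entry in RefSeq's table (47 windows, each 250 bases before to 50 bases after a start site, GRCm38.p6), and capitals mark letters that matched a searched motif. Psmb5 and Psmd12 are shown as a catalytic and a cap subunit holding the antioxidant element core, Psmb9 for the window it shares with Tap1, and Psme1 for its interferon element core.
Psmb5, chr14:54617946-54618245, minus strand: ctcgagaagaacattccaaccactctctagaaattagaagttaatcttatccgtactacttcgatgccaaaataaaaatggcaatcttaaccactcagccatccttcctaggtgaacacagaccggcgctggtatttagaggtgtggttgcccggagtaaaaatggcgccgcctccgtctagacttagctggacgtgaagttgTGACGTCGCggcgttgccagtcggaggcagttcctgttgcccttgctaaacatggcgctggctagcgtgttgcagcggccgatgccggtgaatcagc
Psmd12, chr11:107479278-107479577, plus strand: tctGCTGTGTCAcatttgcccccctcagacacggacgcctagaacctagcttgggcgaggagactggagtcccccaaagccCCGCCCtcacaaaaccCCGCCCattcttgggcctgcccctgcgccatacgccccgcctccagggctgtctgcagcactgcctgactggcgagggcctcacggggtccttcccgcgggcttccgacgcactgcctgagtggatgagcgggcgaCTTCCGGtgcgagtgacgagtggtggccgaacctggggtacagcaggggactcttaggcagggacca
Psmb9, chr17:34187281-34187580, minus strand: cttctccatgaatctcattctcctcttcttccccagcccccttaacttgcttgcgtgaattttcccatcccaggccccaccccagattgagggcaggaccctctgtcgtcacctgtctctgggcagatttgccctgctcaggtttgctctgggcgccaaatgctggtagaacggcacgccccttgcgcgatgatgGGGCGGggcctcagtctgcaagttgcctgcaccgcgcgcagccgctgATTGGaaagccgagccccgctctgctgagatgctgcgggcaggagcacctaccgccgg
Psme1, chr14:55578244-55578543, plus strand: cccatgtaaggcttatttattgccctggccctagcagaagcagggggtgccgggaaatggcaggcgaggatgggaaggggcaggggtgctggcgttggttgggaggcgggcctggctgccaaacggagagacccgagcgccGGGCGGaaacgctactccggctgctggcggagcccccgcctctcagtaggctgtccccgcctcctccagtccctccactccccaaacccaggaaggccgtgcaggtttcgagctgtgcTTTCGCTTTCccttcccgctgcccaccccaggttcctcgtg

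The motifs were searched on both strands, and a match is a description of letters rather than of binding. The antioxidant response element core, TGACNNNGC, was in 12.8% of the proteasome windows and in 12.4% of all 32851 windows. In Psmb5 it begins at -47 counted from the start site, and in Psmd12 at -247 on the other strand. The ETS core CCGGAAG was in 36.2% of proteasome windows and 8.86% of all windows, and 1 match stands in the Psmd12 window. The interferon-stimulated element core, GAAA followed by any 2 letters and GAAA, was in 10.6% and 3.44%. The genes with a match were Psmb3, Psmd4, Psmd9, Psme1 and Psmg4, and in Psme1 it begins at 10 bases after the start site. Psmb8, Psmb9, Psmb10 and Psme2 had windows but no match. CCAAT was in 34% and 37.4%, and the GC box GGGCGG in 53.2% and 35.7%. The start sites of Psmb9 and Tap1, a transporter of peptides for MHC class I, lie 226 bases apart on opposite strands, and their windows share 275 bases.

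The alpha subunits form the gated outer rings of the core. Of 8 Psma genes, 7 were tested, and all 7 had negative log2 changes, from -2.72 (Psma7) to -1.20 (Psma6) around a median of -1.90. Of these, 4 were at an unadjusted p under 0.05. With TMM over protein-coding genes the log2 change of Psma6 turned positive, at 0.05. Without WT replicates 4 and 5 the median was -0.68, beside -0.55 for all protein-coding genes. Psma3, the alpha gene with the highest mean level and the smallest p, had 379.8, 166 and 169 normalised CPM in KO replicates 1 to 3, against 666, 509.8, 434, 2403 and 439 normalised CPM in WT replicates 1 to 5. All KO libraries lay below all WT libraries, and WT replicate 4 stood far above the rest. edgeR gave Psma3 a log2 change of -1.90 (SE 0.77, adjusted p = 0.3245), and -1.16 without WT replicates 4 and 5. The Psma3 locus (chr12:70974621-70996347, plus strand, GENCODE M21 on mm10) overlaps 4733 bases of a transcript on the other strand with 0 to 1784 counts per library, and the kit does not mark strand. Psma8, an alpha subunit of the testis, had 2, 0 and 0 counts in KO and 0, 2, 0, 0 and 0 counts in WT.

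The other beta subunits, Psmb1 to Psmb4, have no catalytic site and complete the inner rings. All 4 had negative log2 changes, from -2.76 to -2.04, 3 at an unadjusted p under 0.05, and their median of -2.49 was -1.05 without WT replicates 4 and 5. Psmb1, first in this group by both level and p, had 203, 132 and 38.5 normalised CPM in KO, against 294, 331, 208, 2768 and 612 normalised CPM in WT. KO replicate 1 and WT replicate 3 were close neighbours, yet no KO value reached a WT value. edgeR gave Psmb1 a log2 change of -2.76 (SE 1.06, adjusted p = 0.3245), and -1.15 without WT replicates 4 and 5. Per kilobase, mean levels in the group were 70.7, 100.3, 84.9 and 22.4 normalised CPM per kilobase in KO for Psmb1, Psmb2, Psmb3 and Psmb4, against 479, 485, 552 and 92.4 in WT, so Psmb4 was the lowest of the 4 in both groups.

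The catalytic subunits come in pairs of a constitutive and an inducible member. Psmb5, the constitutive chymotrypsin-like subunit, had 47.4, 26.9 and 4.83 normalised CPM in KO, against 39.9, 19.3, 90.2, 574 and 107 normalised CPM in WT. KO replicates 1 and 2 lay within the WT range and KO replicate 3 below it. edgeR gave Psmb5 a log2 change of -2.65 (SE 1.30, adjusted p = 0.3626), and -0.92 without WT replicates 4 and 5. Its inducible counterpart Psmb8 had 201, 80.9 and 119 normalised CPM in KO, against 118, 229, 551, 2123 and 962 normalised CPM in WT. KO replicates 1 and 3 overlapped WT replicate 1 and all other WT libraries were higher. edgeR gave Psmb8 a log2 change of -2.58 (SE 0.97, adjusted p = 0.3245), and -1.18 without WT replicates 4 and 5. Of the 47 genes it had the smallest unadjusted p, 0.02467. Psmb8 lies at chr17:34197721-34201454 on the plus strand and Psmb9 at chr17:34181987-34187764 on the minus strand (GENCODE M21, mm10), with Tap1 between them.

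Psmb6, the constitutive caspase-like subunit, had 59.5, 33.0 and 216 normalised CPM in KO, against 125, 113, 59.3, 712 and 886 normalised CPM in WT. KO replicate 3 was above WT replicates 1 to 3, so the groups overlapped widely. edgeR gave Psmb6 a log2 change of -1.88 (SE 1.10, adjusted p = 0.4037), and 0.078 without WT replicates 4 and 5, a change of sign. Psmb9, which replaces it, had 90.0, 47.0 and 62.3 normalised CPM in KO, against 81.7, 124, 88.9, 700.4 and 104 normalised CPM in WT. Only KO replicate 1 reached the WT range, and 4 of the 5 WT values lay between 81.7 and 124. edgeR gave Psmb9 a log2 change of -1.73 (SE 0.94, adjusted p = 0.3846), and -0.56 without WT replicates 4 and 5.

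Psmb7, the constitutive trypsin-like subunit, had 65.8, 16.3 and 5.52 normalised CPM in KO, against 54.3, 84.8, 2.35, 78.2 and 184 normalised CPM in WT. The lowest value of all was in WT replicate 3. edgeR gave Psmb7 a log2 change of -1.46 (SE 1.29, adjusted p = 0.5475), and -0.70 without WT replicates 4 and 5. Psmb10, which replaces it, had 100.3, 72.4 and 66.6 normalised CPM in KO, against 54.2, 0.26, 111, 408 and 295 normalised CPM in WT. The KO libraries were close to each other, while WT replicate 2 held 3 counts and WT replicate 4 held 2901. edgeR gave Psmb10 a log2 change of -1.12 (SE 1.40, adjusted p = 0.6677), which was 0.54 without WT replicates 4 and 5. Psmb11, the catalytic subunit of thymic cortical epithelium, was low everywhere, at 4.0, 4.80 and 9.09 normalised CPM in KO and 3.97, 3.49, 4.04, 0.35 and 2.90 normalised CPM in WT.

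**Figure D3:**
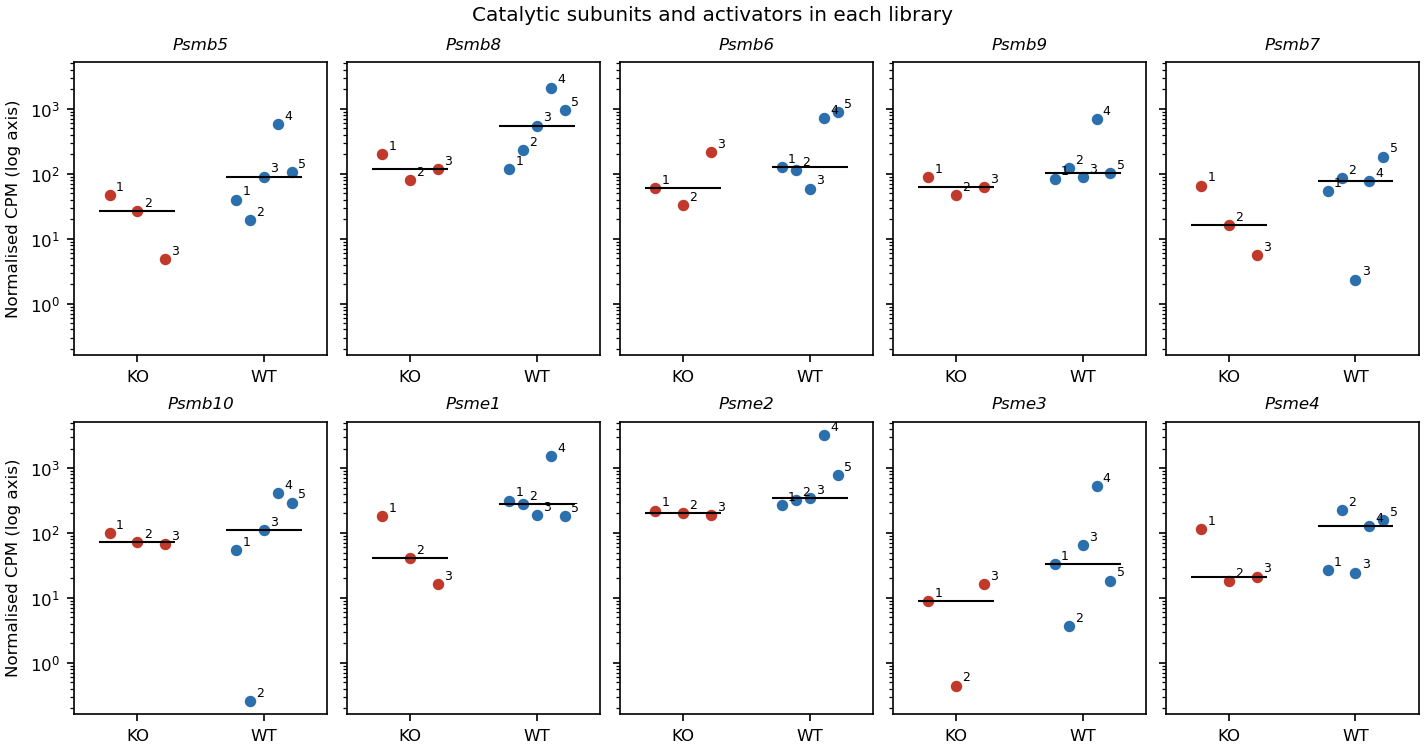
Normalised CPM (log axis) of the 3 constitutive catalytic subunits, the 3 inducible ones that replace them and the 4 activators, with 1 point per library (numbered by replicate) and a line at each group's median. WT replicate 4 is the highest library for 7 of the 10 genes, and Psme2 is the gene in which no KO value reaches a WT value.

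The ratio of an inducible to its constitutive counterpart within a library does not depend on library scaling. The log2 ratio of Psmb8 to Psmb5 per kilobase was 1.23, 0.73 and 3.76 in KO, against 0.71, 2.71, 1.75, 1.03 and 2.31 in WT. It was above 0 in all 8 libraries. Psmb9 to Psmb6 was below 0 in all 8, at -0.16, -0.25 and -2.56 in KO, against -1.38, -0.64, -0.18, -0.79 and -3.85 in WT. Psmb10 to Psmb7 was 0.43, 1.98 and 3.42 in KO, against -0.18, -8.53, 5.39, 2.21 and 0.51 in WT. The groups overlapped in all 3 ratios. The inducible subunits made up 59.2%, 62.1% and 37.6% of the summed catalytic level per kilobase in KO, against 41.3%, 49.5%, 73.5%, 57.2% and 39.2% in WT, so the lowest share was in a KO library, the highest in a WT library and the other KO values inside the WT range.

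**Figure D4:**
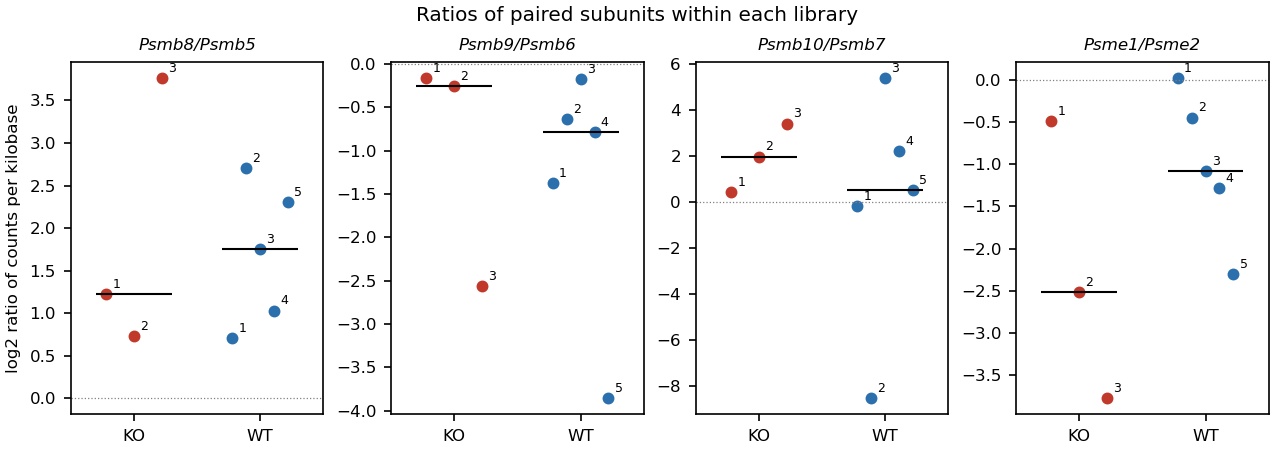
log2 ratio of counts per kilobase for each inducible catalytic subunit over its constitutive counterpart and for Psme1 over Psme2, with 1 point per library (numbered by replicate) and a line at each group's median. KO and WT points overlap in all 4 panels, and Psmb10/Psmb7 has the widest range, from -8.53 to 5.39.

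In the 19S cap, the ATPases form the ring that unfolds substrates. Of 6, 5 had negative log2 changes and the median was -2.48, but 0 had an unadjusted p under 0.05. That median was -0.61 without WT replicate 4 and -0.66 without WT replicates 4 and 5, where the protein-coding genes had medians of -0.73 and -0.55. Psmc3, the ATPase with the smallest p, had 11, 3.59 and 35.1 normalised CPM in KO, against 24.0, 48.6, 79.9, 870.2 and 7.67 normalised CPM in WT. WT replicate 4 exceeded every other library by a wide margin, and WT replicates 1 and 5 lay within the KO range. edgeR gave Psmc3 a log2 change of -3.64 (SE 1.69, adjusted p = 0.3527), and -1.62 without WT replicates 4 and 5. Psmc6, with the highest mean CPM of the ATPases, had 181, 15.7 and 157 normalised CPM in KO, against 163, 189, 106, 1264 and 689 normalised CPM in WT. KO replicates 1 and 3 sat among WT replicates 1 to 3. edgeR gave Psmc6 a log2 change of -2.03 (SE 1.09, adjusted p = 0.382), and -0.39 without WT replicates 4 and 5.

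Psmc2 was the exception among the ATPases, and was chosen after its values were seen. It had 221, 273 and 418 normalised CPM in KO, against 106, 228, 295, 226 and 99.7 normalised CPM in WT. KO replicate 3 was the highest library and WT replicates 1 and 5 the lowest, with the rest overlapping. edgeR gave Psmc2 a log2 change of 0.67 (SE 0.58, adjusted p = 0.5418), and its sign was positive under every alternative run.

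The non-ATPase subunits form the base and lid of the cap, among them ubiquitin receptors and the deubiquitinase Psmd14. All 11 tested had negative log2 changes (median -1.67), 3 at an unadjusted p under 0.05. Of the 11, 8 were negative with library totals alone, 9 with TMM over protein-coding genes and 7 without WT replicates 4 and 5. In the same order, 56.1%, 48.6% and 64.1% of protein-coding genes were negative. Without WT replicates 4 and 5 the median was -0.51, beside -0.55 for protein-coding genes. Psmd1, a large scaffold subunit of the base, had 6, 12 and 3 counts in KO, against 211, 6, 1644, 13 and 303 counts in WT. Its levels were 0.52, 1.79 and 0.52 normalised CPM in KO, against 17.5, 0.52, 138, 1.83 and 42.3 normalised CPM in WT. WT replicates 1, 3 and 5 were high, and WT replicates 2 and 4 were close to the KO values. edgeR gave Psmd1 a log2 change of -5.38 (SE 2.03, adjusted p = 0.3245), and -5.73 without WT replicates 4 and 5. A gene on the other strand overlaps the Psmd1 locus and had 180 counts in WT replicate 2 and 0 elsewhere.

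Psmd12, a lid subunit and the non-ATPase with the highest mean CPM, had 89.7, 52.5 and 72.0 normalised CPM in KO, against 85.4, 161, 236, 382 and 322 normalised CPM in WT. Only KO replicate 1 reached the WT range, just above WT replicate 1. edgeR gave Psmd12 a log2 change of -1.73 (SE 0.69, adjusted p = 0.3245), and -1.17 without WT replicates 4 and 5. At the other end of the group, Psmd7, another lid subunit, had a log2 change of -0.08, whose sign varied with the library left out. Psmd14 had 121, 21.7 and 0 normalised CPM in KO, against 48.3, 9.28, 75.4, 219 and 405 normalised CPM in WT, and its 0 counts in KO replicate 3 allow up to 3 counts. Its log2 change was -1.67, and 0.067 without WT replicates 4 and 5.

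Assembly chaperones of the 19S cap are Psmd5, Psmd9 and Psmd10. Psmd9 had 16.7, 0.79 and 49.8 normalised CPM in KO, against 53.1, 13.7, 63.2, 136 and 68.2 normalised CPM in WT. KO replicate 2 was the lowest library, with 5 counts, and the groups overlapped at WT replicate 2. edgeR gave Psmd9 a log2 change of -1.58 (SE 1.27, adjusted p = 0.5183), and -0.94 without WT replicates 4 and 5. Psmd5 had 121, 109 and 39.4 normalised CPM in KO, against 137, 15.5, 8.35, 359 and 13.8 normalised CPM in WT. WT replicates 2, 3 and 5 were below every KO library while WT replicates 1 and 4 were above. edgeR gave Psmd5 a log2 change of -0.25 (SE 1.26, adjusted p = 0.9246), and its sign turned to 0.80 without WT replicates 4 and 5.

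The activators Psme1 and Psme2 encode the alpha and beta subunits of PA28, the cap that interferon gamma induces beside the immunoproteasome. Psme2 had 222, 206 and 191 normalised CPM in KO, against 269, 324, 340.1, 3250.5 and 775 normalised CPM in WT. The KO libraries were within a narrow range and below every WT library, as they also were in plain shares of counts. edgeR gave Psme2 a log2 change of -2.27 (SE 0.95, adjusted p = 0.3282), and -0.57 without WT replicates 4 and 5. Psme2b, a copy of Psme2, had a log2 change of -1.11, and reads of the near-identical genes may be divided between them by the estimation. Psme1 had 183, 41.4 and 16.1 normalised CPM in KO, against 316, 275, 186, 1541 and 181 normalised CPM in WT. KO replicate 1 reached the lowest WT values, which were alike in WT replicates 3 and 5. edgeR gave Psme1 a log2 change of -2.64 (SE 1.10, adjusted p = 0.3282), and -1.71 without WT replicates 4 and 5.

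PA28 alpha and beta assemble in a ring together, and their log2 ratio per kilobase (Psme1 to Psme2) was -0.49, -2.52 and -3.78 in KO, against 0.02, -0.45, -1.08, -1.29 and -2.30 in WT. KO replicates 2 and 3 had the lowest ratios and KO replicate 1 lay among the WT values. Psme3, encoding the nuclear PA28 gamma, had 9.01, 0.45 and 16.5 normalised CPM in KO, against 33.1, 3.64, 64.8, 528.5 and 18.6 normalised CPM in WT. Only WT replicate 2 lay in the KO range. edgeR gave Psme3 a log2 change of -3.91 (SE 1.83, adjusted p = 0.3536), and -1.98 without WT replicates 4 and 5. Psme4, encoding PA200, had 114, 17.9 and 21.3 normalised CPM in KO, against 27.1, 223, 24.6, 128 and 159.7 normalised CPM in WT. KO replicate 1 lay between the low and the high WT libraries, and KO replicates 2 and 3 were the lowest. edgeR gave Psme4 a log2 change of -1.14 (SE 1.06, adjusted p = 0.5652), and -0.88 without WT replicates 4 and 5.

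Chaperones of 20S assembly are Psmg1 to Psmg4. Psmg2, which pairs with Psmg1 to guide the alpha ring, had 31.1, 27.8 and 15.9 normalised CPM in KO, against 34.4, 109.7, 118, 354 and 69.0 normalised CPM in WT. All KO libraries were below all WT libraries, though WT replicate 1 was near KO replicate 1. edgeR gave Psmg2 a log2 change of -2.46 (SE 0.95, adjusted p = 0.3245), and -1.80 without WT replicates 4 and 5. Psmg3 had counts only in KO replicate 2 (167) and WT replicate 1 (13). Psmf1, encoding PI31, was as uneven, with 602, 2 and 3 counts in KO and 9, 481, 6, 1 and 0 counts in WT.

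The spread among libraries was described for core and cap genes. All 17 core genes had at least 10 counts in every library except WT replicate 2, where 16 did. Across the 8 libraries, the SD of log2(normalised CPM + 1) had a median of 1.34 over the tested alpha genes, 1.73 over Psmb1 to Psmb4, 1.65 over the inducible and 1.95 over the constitutive catalytic genes. It was 1.80 over the non-ATPases, below the constitutive catalytic genes, and 2.23 over the ATPases. Within a library, the interquartile range of log2 levels per kilobase was 0.93 to 1.65 over core genes in KO and 1.04 to 1.90 in WT. Over the 17 subunit genes of the cap it was 2.47 to 4.18 in KO and 1.48 to 4.69 in WT. Of the 47 tested genes, 31 had at least 10 counts in all 8 libraries.

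**Figure D5:**
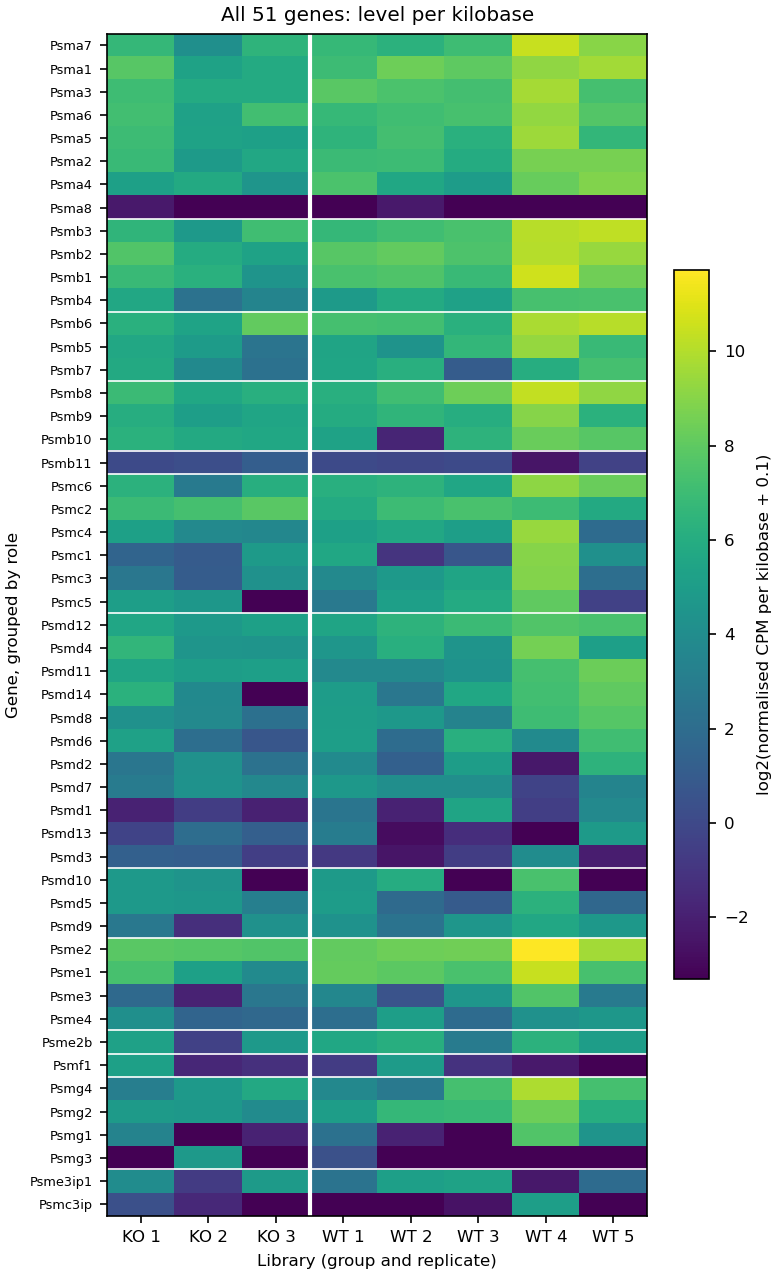
Level of all 51 proteasome genes per library as log2(normalised CPM per kilobase + 0.1), with genes grouped by role and sorted by mean level, and KO libraries left of the white line. Psma8 is at or near the bottom of the scale in all libraries, and cap genes and chaperones show isolated low values in single libraries of both groups.

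Other genes of the pathway were taken from a list of proteasome assembly, transcription, ubiquitin supply and peptide presentation, of which 38 were matched and tested. edgeR called 0 of them after adjustment, and 4 were lower and 1 higher in KO at an unadjusted p under 0.05, where 6.43% and 7.96% of all genes were. Of the 38 log2 changes 35 were negative (median -1.47), against 69% of protein-coding genes (median -0.95). Negative changes numbered 26 with library totals alone, 24 with TMM over protein-coding genes and 29 without WT replicates 4 and 5. In the same order, 56.1%, 48.6% and 64.1% of protein-coding genes were negative. DESeq2 called 10 of the 38 lower and 1 higher, among them B2m and Ubb lower and Ddi2 higher. Of all genes with an adjusted p it called 11.1% lower and 7.13% higher. Ufd1, a cofactor that delivers ubiquitinated proteins to the segregase VCP, had 7.64, 12.6 and 2.24 normalised CPM in KO, against 56.3, 113, 78.0, 517 and 87.1 normalised CPM in WT. Every KO library was below every WT library, and edgeR gave Ufd1 a log2 change of -4.50 (SE 1.18, adjusted p = 0.3245), and -3.42 without WT replicates 4 and 5. B2m, the light chain of MHC class I, had 3068, 2440.3 and 1952 normalised CPM in KO, against 5913, 3986, 9065, 41521 and 12942 normalised CPM in WT. No KO library reached a WT library, and edgeR gave B2m a log2 change of -2.56 (SE 0.79, adjusted p = 0.3245), and -1.33 without WT replicates 4 and 5.

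Ddi2, the protease that cleaves NRF1 to release the active transcription factor for proteasome genes, had 16.4, 5.53 and 45.3 normalised CPM in KO, against 4.65, 0.26, 0.25, 1.54 and 0 normalised CPM in WT. In normalised CPM all KO libraries were above all WT libraries at low levels, an order that held for 13.2% of all tested genes. Counts were 188, 37 and 253 in KO, against 56, 3, 3, 11 and 0 in WT. KO replicate 2 held fewer counts than WT replicate 1, but in a smaller library (4567346 counts in all, against 10589823). edgeR gave Ddi2 a log2 change of 4.05 (SE 1.57, adjusted p = 0.3245), and 3.74 without WT replicates 4 and 5. Nfe2l1, which encodes NRF1, had 5.86, 10.9 and 5.37 normalised CPM in KO, against 19.2, 0, 0.08, 38.6 and 0 normalised CPM in WT, with no order between the groups, and its log2 change of -0.65 was 0.28 without WT replicates 4 and 5. Ubb, a polyubiquitin gene, had 1481, 296 and 195 normalised CPM in KO, against 1234, 856, 1029, 15278 and 5228 normalised CPM in WT, with a log2 change of -2.85 that was -0.68 without WT replicates 4 and 5. Rps27a, a ubiquitin and ribosomal protein fusion, had 375, 1104 and 777 normalised CPM in KO, against 801, 649, 1463, 3158 and 1116 normalised CPM in WT, with a log2 change of -0.94 that was -0.32 without WT replicates 4 and 5.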

How the data were processed

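Sorted Treg RNA (10 ng of total RNA per library, SMART-Seq V4, a kit that does not mark strand) was measured in 3 KO and 5 WT libraries. The authors deposited expected counts per gene with gene lengths, which gave the levels per kilobase; per the submitters' processing notes the tools were fastp, HISAT2, StringTie, RSEM and DESeq2 with build mm10, while the annotation used for counting was not given in the sources used here. All 51 genes were found in GENCODE M21, 1 under another symbol, and the promoter windows are from RefSeq (GRCm38.p6). Whole numbers made up 46.4% of the nonzero values, and counts were rounded for all tests. edgeR 4.0.16 (R 4.3.3) was run with filterByExpr (minimum count 10), TMM scaling and the quasi-likelihood test, two-sided, over all 8 libraries with no covariate, and p-values were adjusted by Benjamini-Hochberg over 14755 genes at a threshold of 0.05. The procedure was tested on simulated data. The common dispersion was 1.67. Standard errors were derived from the log2 change and the F statistic. Alternatives were DESeq2 1.42.0, limma 3.58.1 (voom with quality weights), other size factors and filters, a replicate block, and libraries left out. Nothing ties libraries to separate mice, so p-values measure the spread between libraries, which may be technical. No 2 libraries of a group were alike within sampling noise (lowest chi-square per degree of freedom 58.49). A count of 0 allows up to 3 counts, covering counting error only. Values are given in every library for the catalytic subunits, the activators and, in each other role group, the tested gene with the smallest p and the one with the highest mean CPM, and from the pathway list for up to 4 genes with the smallest p and the 3 with the highest mean. Psmc2, Psma6, Psma7, Psmb2 to Psmb4, Psmb11, Psmd7, Psmd14, Psme2b, Nfe2l1 and the genes that did not pass the filter were named after their values were seen. Some results are not reported here. The members and all lists were chosen with earlier results of these data known.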

Additional observations from a re-analysis of the deposited data

Results flagged for a closer look

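Among the 5 WT libraries, 14 of 46 values examined had a highest or lowest library set apart from the rest by more than Dixon's 95% critical value (0.71), and in all 14 that library was WT replicate 4, at the high end. For normally distributed values, chance flags about 1 in 20 such groups. The flagged levels and shares were examined without taking logs, so that rate need not hold for them. The 46 values also share their libraries. In normalised CPM, WT replicate 4 stood apart for Psmb5 (574), Psmb9 (700.4), Psme1 (1541), Psme2 (3250.5), Psme3 (528.5), Psma3 (2403), Psma6 (655), Psmb1 (2768), Psmc3 (870.2) and Psmg2 (354). It also did so for the pathway genes Ufd1 (517) and B2m (41521). As a share of library counts, which uses no scaling factor, it stood apart for the ATPases (0.179%) and the activators (0.216%). The same library had a TMM factor of 0.4 and the highest summed B cell and NK and cytotoxic markers, and the part of these in the values was not tested.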

How the results depend on the processing

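No proteasome gene was called by edgeR under any of its alternatives or with any library left out. The count of genes called higher over the whole table was 1 with library totals alone, with TMM over protein-coding genes, with no filter and at a mean of at least 5 CPM; limma-voom gave 4 lower and 18 higher, and DESeq2 gave 1476 lower and 945 higher, with 15 proteasome genes lower. The median log2 change of the proteasome genes moved to -0.88 with library totals alone, -0.77 with TMM over protein-coding genes, -0.79 with the replicate block and -0.82 without WT replicates 4 and 5, and ran from -2.58 to -1.29 with each library left out in turn. The cause of these moves was not tested. Proteasome genes lower at an unadjusted p under 0.05 numbered 14, against 1 without KO replicate 2, 0 without KO replicate 3, 7 without WT replicate 4, 9 without WT replicate 5, 9 at a mean of at least 5 CPM, 8 with limma-voom and 2 with the replicate block. Of all genes tested, the shares so placed were 6.43%, against 2.39%, 2.35%, 6.67%, 5.13%, 6.26%, 9.86% and 5.41% in the same order.

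Of the genes named with a log2 change, 8 turned from negative to positive under at least 1 alternative. With library totals alone Psmb10 was 0.015, Psmd5 0.91, Psmd7 0.36, Nfe2l1 0.47 and Rps27a 0.014. With TMM over protein-coding genes Psmb10 was 0.13, Psmd5 0.97, Psma6 0.05, Psmd7 0.94, Nfe2l1 0.69 and Rps27a 0.37. At a mean of at least 5 CPM Psmd5 was 0.16 and Psmd7 0.22. With limma-voom Psmb10 was 1.87, Psmd5 1.42 and Nfe2l1 3.54, and with the replicate block 1.70, 1.70 and 4.84. Without the 2 libraries named FY, Psmd7 was 0.29. Without WT replicates 4 and 5 Psmb6 was 0.078, Psmb10 0.54, Psmd5 0.80, Psmd14 0.067 and Nfe2l1 0.28. With each library left out in turn Psmd5 ran from -0.58 to 1.04, Psmd7 from -0.50 to 0.26 and Nfe2l1 from -1.06 to 0.61. Whether replicate numbers pair the libraries is not given. Deviations of same-numbered KO and WT libraries correlated at 0.057, 0.01 and 0.038, against -0.049 to 0.014 for libraries numbered differently. With 3 libraries per group these values cannot decide pairing, and the block used replicates 1 to 3 only. Of the 17 cap subunit genes, 0, 0 and 3 had 3 counts or fewer in KO replicates 1 to 3, and 0, 2, 0, 2 and 1 in WT replicates 1 to 5, an order that did not follow the library totals.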
